A study of Macaca fascicularis with 22 samples.

Results

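The sarcomeric myosin heavy chains are the motor proteins of the thick filament in striated muscle, and 8 of their genes were followed here by the accession that the array gives for each probe: MYH3 (NM_002470), MYH8 (NM_002472), MYH2 (NM_017534), MYH1 (NM_005963), MYH4 (NM_017533), MYH7 (NM_000257), MYH6 (NM_002471) and MYH13 (NM_003802). Each had 1 probe of the 20217 on the array, in 2 spots, and all 8 passed the filter on dim probes. In skeletal muscle no isoform was called between the birth weight groups once the test was corrected for all probes. The same held for all 17117 probes tested (0.0% called). The embryonic and neonatal isoforms differed by several fold between arrays of the same group.

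A heavy chain carries the ATPase and the actin binding site, and the isoform present sets much of a fibre's shortening speed. During development a muscle fibre makes the embryonic chain MYH3 and the neonatal chain MYH8 first and replaces them with adult chains, which are MYH7 in slow fibres and MYH2 (type IIa), MYH1 (type IIx) and MYH4 (type IIb) in fast fibres. MYH6 is the alpha chain of heart muscle and MYH13 a chain of eye and larynx muscles. In the cynomolgus macaque assembly T2T-MFA8v1.1 the RefSeq genes MYH13, MYH8, MYH4, MYH1, MYH2 and MYH3 are neighbours in that order on chromosome 16, and MYH6 lies on chromosome 7. These chains are close in sequence, and the letters of the probes were not used here, so signal shared between isoforms could not be checked.

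RNA of cynomolgus macaque neonates (Macaca fascicularis) was measured on 22 single-colour arrays designed for the rhesus macaque. The low birth weight group (LBW) lay between the 5th and the 25th birth weight centile and the average birth weight group (ABW) between the 50th and the 75th. The sample titles call the ABW arrays control and the LBW arrays treated, but no agent or genotype is given for either group, and the methods say that all pregnancies were sired naturally by 1 male. There were 4 skeletal muscle arrays (biceps femoris) and 4 arrays labelled umbilical cord in each group, and 3 labelled liver in each. The labels place all sampling at birth, whereas the methods place that of muscle and liver some days later. The labels do not say which arrays come from the same animal, so the p-values measure the spread between arrays.

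Values are log2 of the processed signal minus that of the array's 75th percentile, so that 0 is that percentile. The percentile itself ran from 359.6 to 798.1 on the muscle arrays, from 778.9 to 1043 on those labelled liver and from 315.5 to 2373 on those labelled umbilical cord, and between 14594 and 17887 probes were well above background. A list of 9 hepatocyte genes, which includes albumin, averaged 6.39 to 7.29 on the arrays labelled umbilical cord and -6.88 to -5.91 on those labelled liver, where 4 smooth muscle genes averaged 6.75 to 7.08. Both sets of arrays thus go against their labels and are called here by label only. All muscle ABW arrays were on one slide and all muscle LBW arrays on another, so in muscle the slide cannot be told apart from the birth weight group. A list of 6 striated muscle genes averaged 7.43 to 8.16 on the muscle arrays, in keeping with that label.

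All 8 heavy chains were well above background on all 8 muscle arrays, and each had a higher mean there than on the arrays under either other label. In limma's fit of the 6 groups all 8 were called higher in muscle than on the arrays labelled liver, where 65.3% of all 17117 probes tested were called in either direction and 37.2% called higher. Against the arrays labelled umbilical cord all 8 were called higher as well, with 64.9% of all probes called and 35.8% called higher. The MYH13 difference from that label was the smallest (1.16, SE 0.40) and turned to -0.03 when arrays were scaled to the spike-in controls, which moved the median of all probes from 0.11 to -1.07 in that comparison. On that scale 8 members were still called higher in muscle than under the liver label and 7 than under the umbilical cord label. Of all 17117 probes 1597 and 1472 were called higher in muscle there. The share of all calls that were higher in muscle went from 57.0% to 25.6% and from 55.2% to 15.6%.

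**Figure D1:**
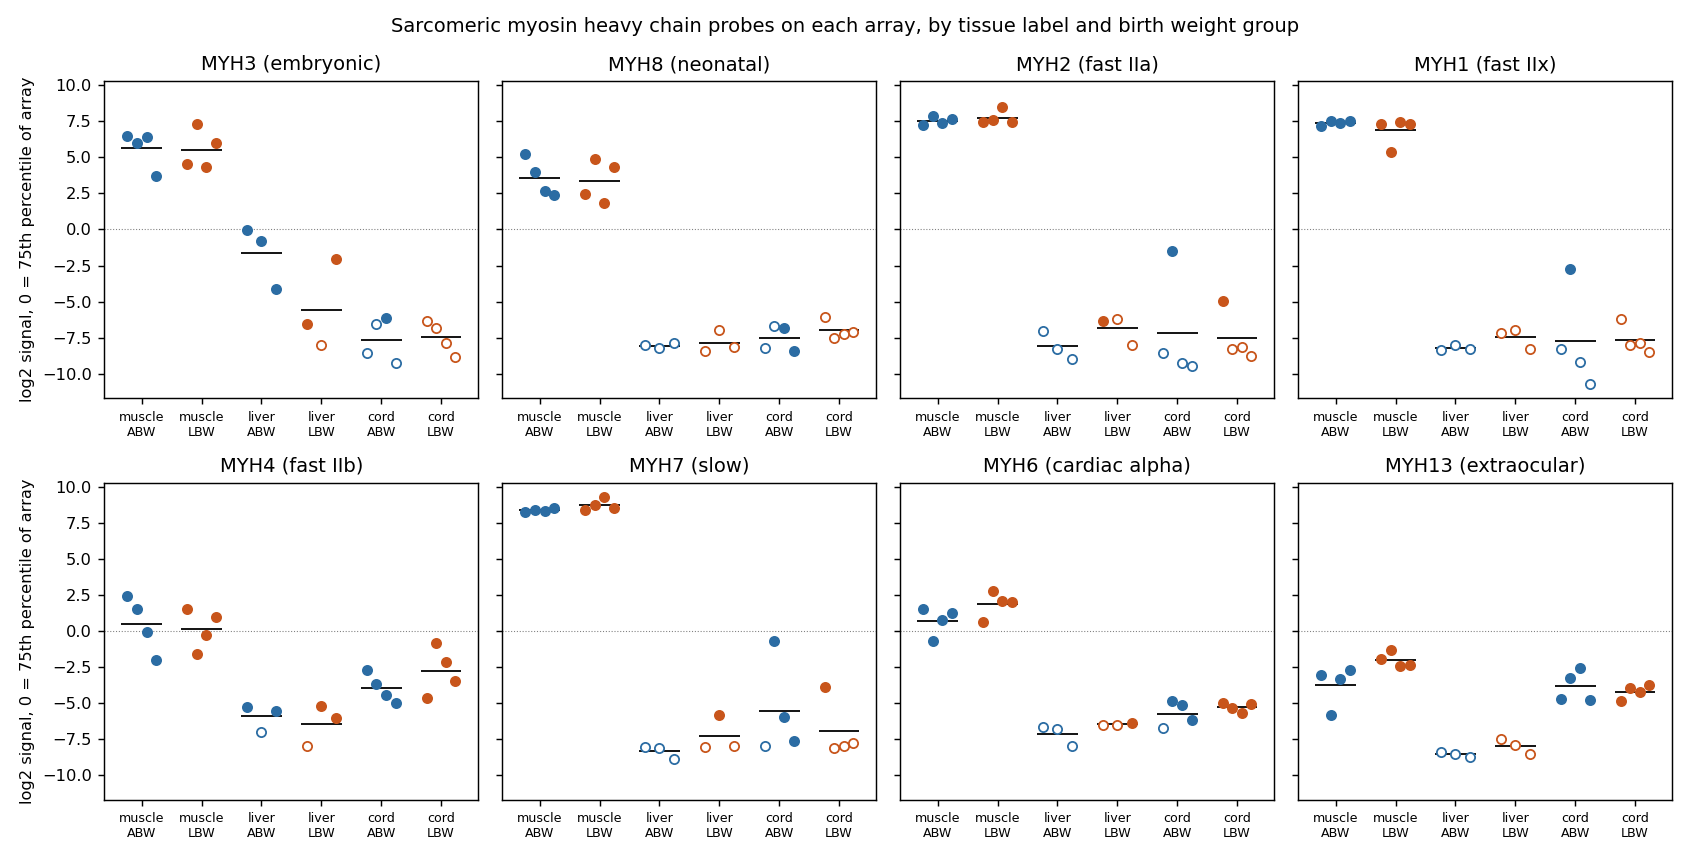
Log2 signal of each heavy chain probe (0 is the array's 75th percentile) on every array, by tissue label and birth weight group, with blue for ABW, orange for LBW, filled points for a probe well above background, open points for one that was not, and a line at the group mean. All 8 probes are filled on all 8 muscle arrays, and MYH4 and MYH13 are also filled on all 8 arrays labelled umbilical cord.

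MYH3, the embryonic chain, read 6.48, 5.97, 6.44 and 3.72 on muscle ABW replicates 1 to 4. It read 4.52, 7.29, 4.35 and 5.99 on LBW replicates 1 to 4. The groups overlapped, since the highest value was on LBW replicate 2 and the lowest on ABW replicate 4. The ABW mean was 5.65 ± 1.31 (SD, n = 4) and that of LBW 5.54 ± 1.38 (SD, n = 4). The LBW minus ABW difference was -0.12 (SE 0.78, limma adjusted p = 0.962), with a 95% interval from -1.88 to 1.65, so that changes of up to about 3-fold in either direction lie within it.

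MYH8, the neonatal chain that follows MYH3 in development, read 5.23, 3.97, 2.64 and 2.41 on ABW replicates 1 to 4. It read 2.46, 4.88, 1.87 and 4.30 on LBW replicates 1 to 4. High and low arrays were present in both groups, with ABW replicate 1 highest and LBW replicate 3 lowest. The difference was -0.18 (SE 0.80, limma adjusted p = 0.943) with a 95% interval from -1.99 to 1.62. The sign of the MYH3 and MYH8 differences rested on single arrays. Leaving out each muscle array in turn moved the MYH3 difference between -0.76 and 0.28 and the MYH8 difference between -0.68 and 0.37.

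MYH2, the adult type IIa chain, read 7.28, 7.85, 7.36 and 7.64 in ABW and 7.47, 7.62, 8.49 and 7.45 in LBW. These 8 values stood close together apart from LBW replicate 3, which was the highest. The difference was 0.22 (SE 0.27, limma adjusted p = 0.744), which fell to -0.02 without LBW replicate 3 and turned to -0.29 on the spike-in scale.

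MYH1, the adult type IIx chain, read 7.21, 7.54, 7.38 and 7.50 in ABW and 7.32, 5.38, 7.49 and 7.33 in LBW. The other arrays lay within a narrow band and LBW replicate 2 far below them. The difference was -0.53 (SE 0.43, limma adjusted p = 0.620), and it was -0.03 without that array. On the spike-in scale it was -1.04 (limma unadjusted p = 0.0421, adjusted p = 0.219).

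MYH4, the adult type IIb chain, read 2.43, 1.57, -0.08 and -1.97 in ABW and 1.55, -1.58, -0.24 and 1.0 in LBW. Its spread between arrays was the widest of the 8 probes in muscle, with a highest unscaled signal of 4293 on ABW replicate 1 against a lowest of 170.2 on ABW replicate 4, a 25.2-fold range. The difference was -0.31 (SE 0.98, limma adjusted p = 0.921). It turned to 0.34, 0.06 and 0.28 without ABW replicate 1, ABW replicate 2 and LBW replicate 2 respectively.

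MYH7, the chain of slow fibres and of the heart ventricle, read 8.29, 8.39, 8.37 and 8.57 in ABW and 8.41, 8.73, 9.30 and 8.53 in LBW. LBW replicates 2 and 3 lay above all ABW arrays on this scale. LBW replicate 3 had the lowest 75th percentile (359.6). Its unscaled signal of 226763 was below those of ABW replicates 1, 3 and 4 (250087, 254270 and 255079). The difference was 0.34 (SE 0.22, limma adjusted p = 0.531), and -0.18 on the spike-in scale.

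MYH6, the cardiac alpha chain, read 1.53, -0.66, 0.77 and 1.27 in ABW and 0.64, 2.78, 2.10 and 2.05 in LBW. LBW replicates 2, 3 and 4 lay above all ABW arrays, while LBW replicate 1 lay within their range. The difference was 1.17 (SE 0.56), a 2.25-fold higher mean in LBW with a 95% interval of 0.942 to 5.36, and it did not pass the test (limma unadjusted p = 0.0644, adjusted p = 0.379; exact permutation p = 0.171, two-sided). It came to 0.71 without ABW replicate 2.

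MYH13, the extraocular chain, read -3.03, -5.81, -3.29 and -2.67 in ABW and -1.91, -1.30, -2.43 and -2.32 in LBW. All 4 LBW arrays lay above all 4 ABW arrays, as they did for 1 of the 8 members against 10.5% of all probes whose muscle groups did not overlap in either direction. The difference was 1.71 (SE 0.63), a 3.28-fold higher mean in LBW with a 95% interval of 1.22 to 8.78. In limma's test the unadjusted p was 0.0234, and the adjusted p of 0.250 (0.223 to 0.500 over the other settings) did not pass. The exact permutation p was 0.0286, the smallest that 4 arrays against 4 can give. Without ABW replicate 2, where the unscaled signal was 10.6 against 66.9 to 251.1 on the other 7 arrays, the difference was 1.01 (limma unadjusted p = 0.0119, adjusted p = 0.285). Without LBW replicate 2 it was 1.48 with an unadjusted p of 0.0643. It was 0.91 after normexp background correction (limma unadjusted p = 0.0023, adjusted p = 0.447) and 1.20 on the spike-in scale (limma unadjusted p = 0.0792, adjusted p = 0.258).

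**Figure D2:**
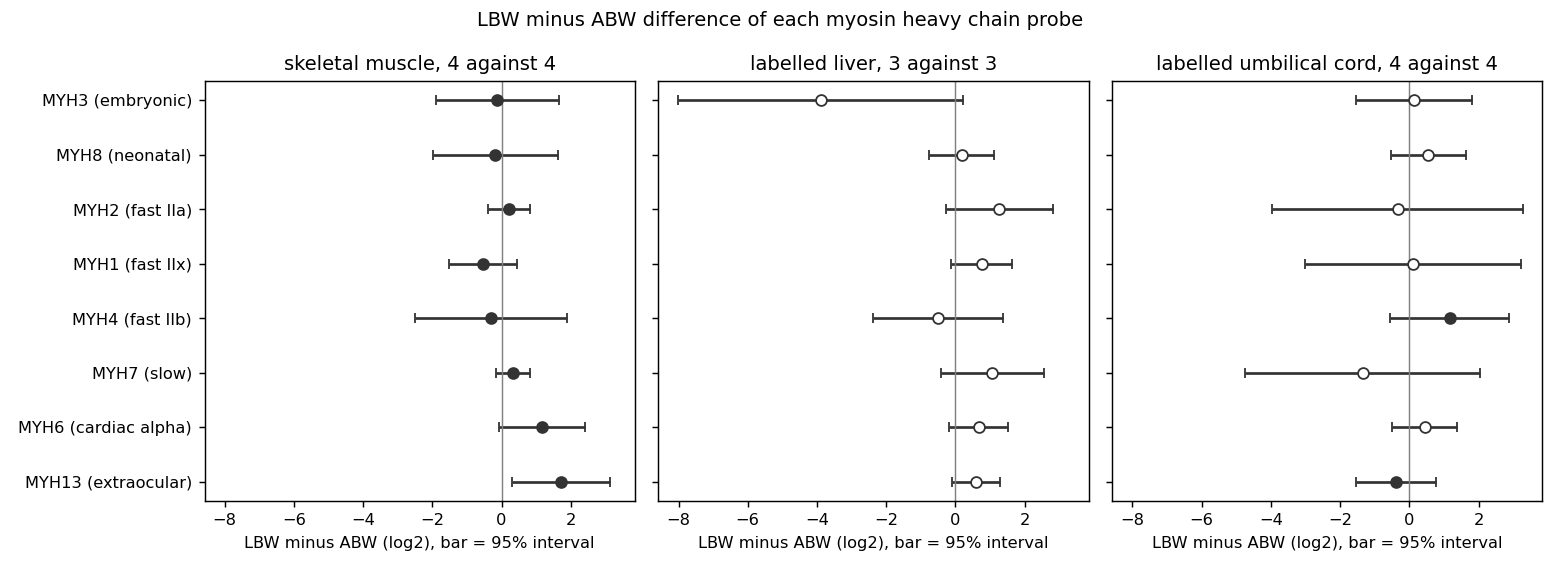
LBW minus ABW difference of each heavy chain probe on the log2 scale, with its 95% interval from limma, in muscle (4 against 4), on arrays labelled liver (3 against 3) and on arrays labelled umbilical cord (4 against 4). Filled points are probes well above background on every array of both groups, and the MYH13 interval in muscle is the only one of the 24 that does not cross 0.

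At an adjusted p under 0.05 no member was called in muscle (0 of 8, against 0.0% of all probes). By the thresholds of the methods, a 1.5-fold difference at an unadjusted p under 0.05, limma called 1 of 8 (MYH13, higher in LBW). The share over all probes was 12.1% (9.59% higher and 2.54% lower). The methods' t-test gave 0 of 8, which is not set against that share, since the share came from limma. The median difference of the 8 members was 0.05, beside 0.06 for all probes tested.

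The developmental isoforms were also set against the adult fast isoforms within each array, as the mean of MYH3 and MYH8 minus the mean of MYH2, MYH1 and MYH4. The values depend on how brightly each probe labels, so only their shifts between arrays are read. They were 0.22, -0.69, -0.34 and -1.32 in ABW and -1.96, 2.28, -2.14 and -0.11 in LBW. LBW replicate 2 was shifted most towards the developmental chains and LBW replicates 3 and 1 most towards the adult fast ones, with an SD of 2.05 in LBW and 0.64 in ABW. The order and the gap in spread rested in part on MYH4, the probe with the widest range. With MYH4 left out the SDs were 1.96 in LBW and 1.28 in ABW, and ABW replicate 4 (-1.64 from the mean of the 8 arrays) came before LBW replicate 1 (-1.04) and after LBW replicate 3 (-2.02). The group means were -0.53 in ABW and -0.48 in LBW, a shift of 0.05. Without LBW replicate 2 the shift was -0.87 and without LBW replicate 3 it was 0.60.

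**Figure D3:**
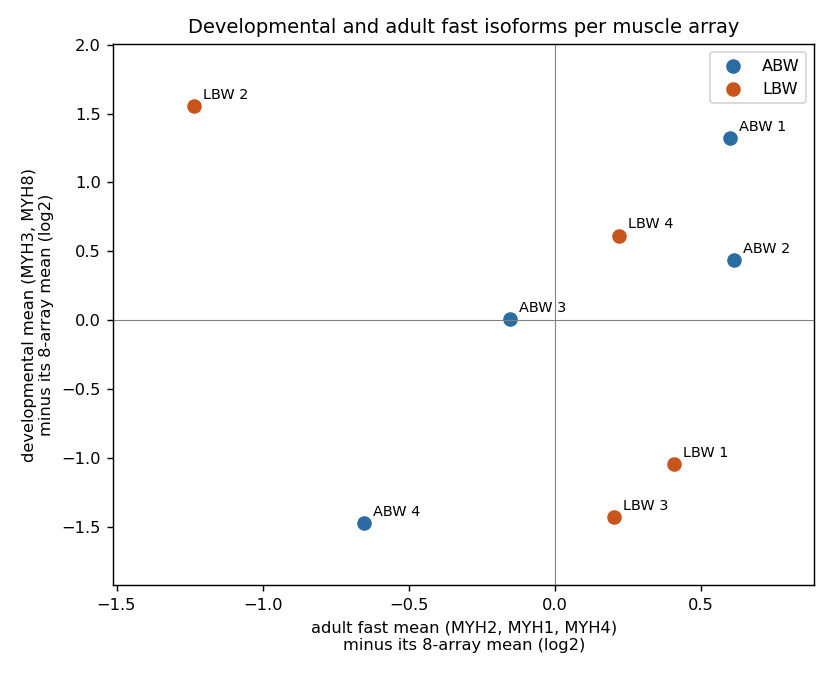
Mean log2 signal of the developmental isoforms (vertical axis) and of the adult fast isoforms (horizontal axis) on each muscle array, each minus its mean over the 8 arrays, with blue for ABW and orange for LBW. LBW replicate 2 stands alone at the upper left and both groups have arrays above and below 0 on the vertical axis.

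Over the 8 muscle arrays MYH3 and MYH8 varied together (Pearson r = 0.79, Spearman rho = 0.88), and r was 0.66 over the 6 arrays left without the 2 farthest from the MYH3 median. The scaled values of MYH2 and MYH7 did so as well (r = 0.88, rho = 0.71, and 0.89 over 6 arrays). Their unscaled signals hardly moved, with a log2 SD of 0.058 and 0.137 against 0.365 for the 75th percentile. Unscaled, ABW replicate 2 had the highest MYH2 (137414) and the lowest MYH7 (199636). The r of this pair is therefore not read apart from the shared scaling. MYH6 and MYH13 had an r of 0.83 that fell to 0.11 without ABW replicate 2 and LBW replicate 2, and so rested on those arrays. MYH3 and MYH1 ran against each other (r = -0.60, rho = -0.71, and -0.63 over 6 arrays). These are descriptions of 4 pairs picked from all pairs of the 8 after their values were seen, without a test, and all values of an array share its scaling.

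LBW replicate 2 stood apart at part of the sarcomere genes, named here from their RefSeq accessions. It had the lowest value of all 8 arrays for 4 of 6 genes of the fast thin filament list and for none of the 10 of the slow and cardiac list, where it had the highest value for 5. Of 12 thick filament partners it was lowest for 1 and highest for 2. LBW replicate 3, the array with the lowest percentile, was highest for 6 of those 12 and for 3 of the 6 fast thin filament genes. MYBPC2 (NM_004533), the fast myosin binding protein C, read 4.61 on LBW replicate 2 and 6.63 to 7.53 on the other arrays. PVALB (NM_002854), the calcium buffer parvalbumin of fast fibres, read 0.11 on LBW replicate 2 against 1.43 to 4.87. MYH1 was lowest on the same array and MYH4 second lowest, while TNNC2 (NM_003279), fast troponin C, read 8.93, within the range of the others.

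On the slow side MYOZ2 (NM_016599), a Z-disc protein of slow fibres and heart, read 4.45 on LBW replicate 2 and 1.96 to 2.71 on the other 7. TPM3 (NM_152263), slow tropomyosin, read 6.61 there against 4.38 to 5.96. MYH7B (XR_012588), a slow-type heavy chain outside the 8, read 5.99 against 2.32 to 4.99. ABW replicate 2 was the lowest array for MYH6, MYH13, TPM3 and MYH7B and for TNNC1 (NM_003280), slow and cardiac troponin C, which read 5.26 there against 6.10 to 7.25. The same pair of arrays thus marked the ends of the range for MYH13 and for these slow genes, which were picked after their values were seen. Others of the slow and cardiac list ran otherwise. TNNT1 was highest on LBW replicate 3, TNNI1 on ABW replicate 4 and ATP2A2 on ABW replicate 3. MYH7 itself was lowest on ABW replicate 1 and highest on LBW replicate 3.

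The 7 perinatal genes include genes of young and of maturing muscle, so no shared direction is read from their counts. Over the 8 muscle arrays ACTC1, MYOG, NCAM1 and CHRNE had an r of 0.15 to 0.73 with MYH3 and 0.42 to 0.69 with MYH8. The other 3, CHRNG, IGF2BP1 and ACTA1, had an r below 0 with both (-0.38 to -0.03 and -0.50 to -0.34). IGF2BP1 was dim on all of these arrays, at -8.75 to -7.61. ACTC1 and, from the thick filament partners, MYBPH are described here because their r was among the highest. ACTC1 (NM_005159), the cardiac actin that fetal skeletal muscle makes, read 7.48, 5.96, 4.65 and 2.71 in ABW and 0.99, 6.67, 3.57 and 2.38 in LBW. MYBPH (BC044226), myosin binding protein H, read 7.43, 6.98, 5.17 and 4.06 in ABW and 3.26, 6.43, 1.97 and 3.45 in LBW. Both were high on ABW replicates 1 and 2 and on LBW replicate 2, as MYH8 was, while LBW replicate 4 was high for MYH8 and low for both. Neither difference between groups passed the test, at -1.80 (SE 1.28, limma adjusted p = 0.562) for ACTC1 and -2.14 (SE 1.0, limma adjusted p = 0.372) for MYBPH.

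**Figure D4:**
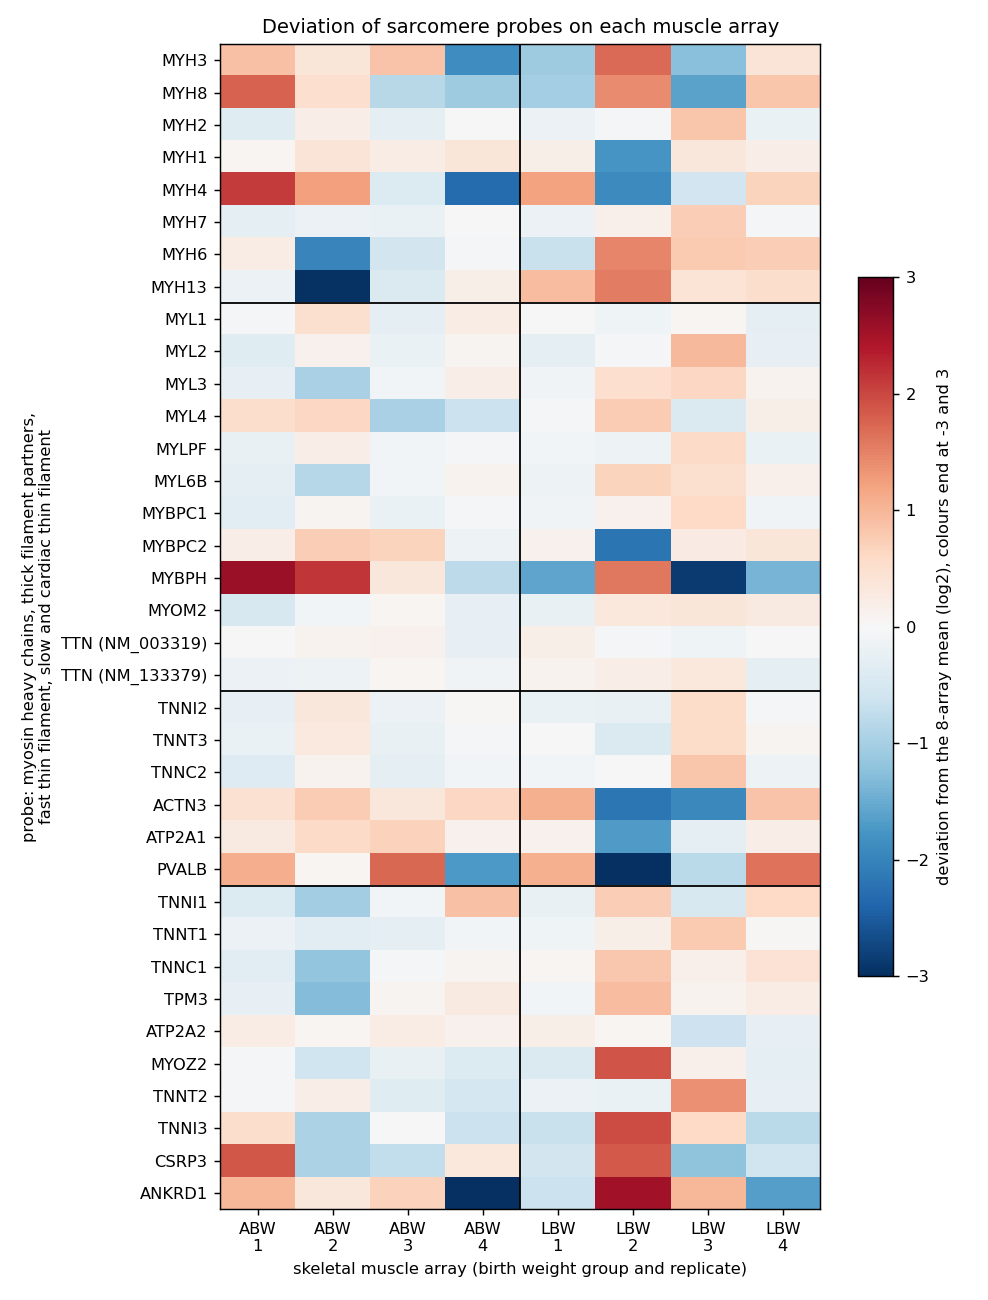
Deviation of each probe from its mean over the 8 muscle arrays (log2, red above and blue below, colours end at -3 and 3), for the 8 heavy chains, their thick filament partners, the fast thin filament list and the slow and cardiac thin filament list. LBW replicate 2 is blue at MYH1, MYH4, MYBPC2, ACTN3, ATP2A1 and PVALB and red at MYH3, MYH8, MYH6, MYH13 and MYOZ2.

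No gene of the 6 companion lists was called in muscle at an adjusted p under 0.05, against 0.0% of all probes. By the thresholds of the methods none of 12 probes of the thick filament partners was called, none of 6 for myosin assembly (chaperones and ubiquitin ligases of the sarcomere), none of 6 for the fast thin filament and none of 5 for other class II heavy chains. Of all probes 12.1% were called by these thresholds, made up of 9.59% higher and 2.54% lower in LBW. In the slow and cardiac thin filament list 1 of 10 was higher in LBW (TNNC1, 0.74, SE 0.30, limma adjusted p = 0.308). In the perinatal list 1 of 7 was higher (CHRNG, NM_005199, the fetal subunit of the acetylcholine receptor, 0.75, SE 0.29, limma adjusted p = 0.267). With 1 call each, neither list is set apart from all probes. The median differences were 0.18, -0.12, -0.27, 0.07, 0.48 and 0.20 for these lists in the order given, beside 0.06 for all probes.

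Markers of other cell types had no call in muscle at an adjusted p under 0.05 (0.0% of all probes had), though the means of some lists leaned one way. By the thresholds of the methods no hepatocyte, smooth muscle, endothelial or adipocyte gene was called. All 6 stromal genes had a lower mean in LBW, 4 of them past the thresholds of the methods (2.54% of all probes were, in that direction), among them COL1A1 (-1.05, SE 0.36) and POSTN (-1.77, SE 0.58). The summed stromal signal ran from 33071 to 62794 in ABW and from 11050 to 42592 in LBW. All 4 erythroid genes had a higher mean in LBW, 2 of them past those thresholds (9.59% of all probes were, in that direction), and their summed signal ran from 1931 to 11680 in ABW and from 4157 to 21206 in LBW. Of 3 cardiac muscle markers, 1 of them also in the slow and cardiac list, all had a higher mean in LBW and 1 was past them (NPPA, NM_006172, the atrial natriuretic peptide, 0.89, SE 0.32), with summed signals of 748.5 to 2759 in ABW and 1073 to 5802 in LBW. Hepatocyte genes averaged -6.04 to -0.32 in ABW and -6.50 to -1.77 in LBW. The part of these in the differences of the heavy chains was not tested. In bulk RNA fewer fibres of a type and less RNA per fibre cannot be told apart.

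The unscaled signals of the brightest probes hardly moved between muscle arrays. MYH2 ran from 121507 to 137414, a 1.13-fold range, and MYH7 from 199636 to 266422, a 1.33-fold range, while the 75th percentile of these arrays had a 2.22-fold range. Their scaled values therefore ran largely with the inverse of the percentile, and both were highest on LBW replicate 3, the array with the lowest percentile. No spot was marked as saturated. Over the 77 probes above 50000 on all muscle arrays the median range was 1.75-fold, against 2.91-fold over all probes tested. MYH3 (13.2-fold), MYH8 (22.9-fold), MYH4 (25.2-fold), MYH6 (11.3-fold) and MYH13 (23.7-fold) ranged far more widely, and MYH1 (4.96-fold) between. Whether the brightest probes were near the top of their response was not tested.

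**Figure D5:**
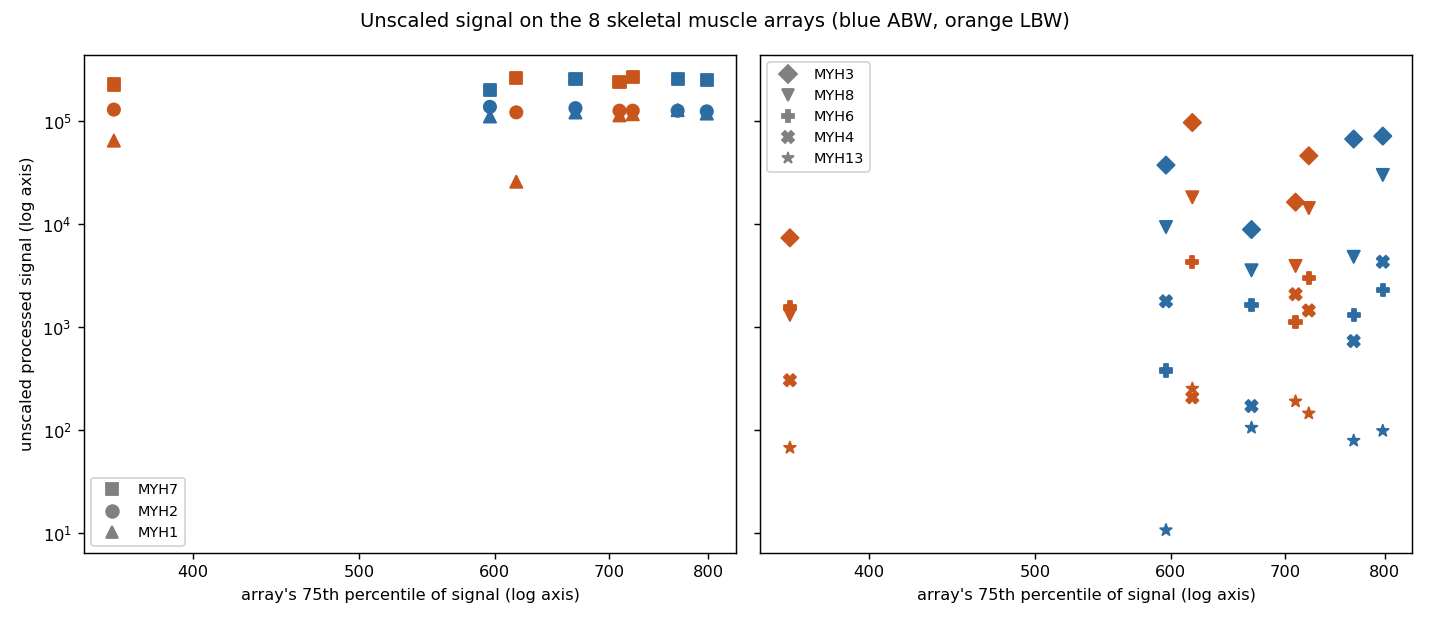
Unscaled processed signal of each heavy chain probe against the array's 75th percentile on the 8 muscle arrays (both axes log, blue ABW, orange LBW, one symbol per probe), to be read within a probe. MYH7 and MYH2 stay level across the percentiles, MYH1 drops on 2 LBW arrays, and the dimmer probes scatter over 10-fold or more.

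On the arrays labelled liver MYH3 was the one heavy chain with a clear signal. It read -0.02, -0.81 and -4.15 on ABW replicates 1 to 3 and -6.55, -8.03 and -2.07 on LBW replicates 1 to 3, which are unscaled signals of 806.8, 469.3 and 54.1 against 8.30, 3.14 and 248.1. All 3 ABW arrays and LBW replicates 1 and 3 had it well above background. The groups overlapped, since LBW replicate 3 lay above ABW replicate 3. The difference was -3.89 (SE 1.72, limma unadjusted p = 0.0605, adjusted p = 0.83; exact permutation p = 0.2, where 0.1 is the smallest that 3 arrays against 3 can give). The size varied with the setting, at -1.86 after normexp background correction (limma adjusted p = 1.0), -2.92 with array weights (limma adjusted p = 0.678) and -5.63 to -2.65 without single arrays. Scaling to the spike-in controls gave -3.80, the one setting to pass (limma adjusted p = 4.39e-05). The difference hardly moved, but its SE was 0.66 on that scale against 1.72 above, so that call rests on the smaller spread limma used. Within the slide that held the 3 ABW arrays the difference was -4.89 (limma adjusted p = 0.607), with LBW replicate 1 as the lone LBW array and the spread taken from ABW.

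ACTC1 was bright on all 6 of these arrays (5.35 to 7.44), and ANKRD1 (NM_014391), a stress-induced ankyrin protein of muscle, read -5.24, -2.12 and -2.58 in ABW and -5.58, -4.96 and -3.62 in LBW. Of the striated muscle markers MB (NM_203377), myoglobin, read -8.05 to -5.74 there and ACTA1 (NM_001100), skeletal actin, 3.16 to 4.92. Erythroid genes moved between these arrays as well, with summed signals of 109007 to 215207 in ABW and 50078 to 205238 in LBW. The part of either in the MYH3 difference was not tested.

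The other 7 heavy chains lay near background there. MYH8, MYH1 and MYH13 were well above background on none of the 6 arrays labelled liver, and the muscle means were at least 1744-fold, 21993-fold and 22.1-fold higher. These bounds set the mean over all 8 muscle arrays against the higher, per array, of the probe's own signal and the lowest signal well above background. MYH2, MYH7 and MYH6 were well above background on 1 of 6 each, and MYH4 on 4 of 6 with -7.98 to -5.19. Between the birth weight groups 0 of 8 members were called under this label (0.0% of all probes). None reached an unadjusted p under 0.05 in limma or in the methods' t-test (4.73% of all probes did in limma with a 1.5-fold difference). In 2 of 8 (MYH7 and MYH6) the groups did not overlap, against 12.1% of all probes.

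On the arrays labelled umbilical cord MYH4 and MYH13 were well above background on all 8. MYH4 read -2.69, -3.66, -4.42 and -5.00 on ABW replicates 1 to 4 and -4.63, -0.81, -2.17 and -3.48 on LBW replicates 1 to 4. LBW replicates 2 and 3 were the highest and the groups overlapped. The difference was 1.17 (SE 0.77, limma adjusted p = 0.666). Against the arrays labelled liver MYH4 was 2.80 higher (SE 0.72, limma adjusted p = 0.00192), and 1.20 with an adjusted p of 0.0569 after normexp background correction.

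MYH13 read -4.68, -3.23, -2.54 and -4.81 in ABW and -4.83, -3.94, -4.24 and -3.76 in LBW under this label. The groups overlapped, and ABW replicate 3 was the highest. The difference was -0.38 (SE 0.52, limma adjusted p = 0.852), which became 0.32 after normexp background correction and 0.05 without ABW replicate 3. The mean was at least 9.93-fold higher than on the arrays labelled liver. The hepatocyte genes were bright on all of these arrays while MYL1 (NM_079420), the fast light chain, lay at -8.81 to -2.83. Of the 12 thick filament partners, MYL1 included, 10 to 12 were well above background on the ABW arrays and 10 to 11 on the LBW arrays.

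MYH6 was well above background on 7 of these 8 arrays, with -6.73, -4.86, -5.15 and -6.14 in ABW and -5.01, -5.34, -5.70 and -5.04 in LBW. It was 1.30 higher than on the arrays labelled liver (SE 0.38, limma adjusted p = 0.00478), and 0.46 with an adjusted p of 0.231 after normexp background correction. MYH3 was 3.95 lower than there on the log2 scale (difference -3.95, SE 0.87, limma adjusted p = 0.000491) and well above background on 1 of 8. In all, 4 of 8 members were called between these labels, against 67.0% of all probes. On the spike-in scale 5 were called, with 7267 of all 17117 probes called on that scale against 11461 without it. The share of all calls higher under the umbilical cord label went from 53.3% to 66.5%.

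ABW replicate 2 stood apart on the arrays labelled umbilical cord. MYH7 read -0.68, MYH2 -1.50 and MYH1 -2.76 there, against -8.08 to -3.84, -9.48 to -4.94 and -10.69 to -6.19 on the other 7. The same array was the highest of the 8 for ACTA1 at 1.74 against -7.51 to -2.0, and for MB at -1.30 against -7.90 to -4.44. LBW replicate 1 was the next highest for MYH7 and MYH2 and for both markers, at -2.0 and -4.44. MYH6 (-4.86) was also highest of the 8 on ABW replicate 2 and MYH13 (-3.23) second highest, while MYH4 (-3.66 and -4.63) was not among the highest on either array. The part of striated muscle RNA in these values was not tested. Between the groups 0 of 8 members were called, against 0.631% of all probes. None reached an unadjusted p under 0.05 in limma or the methods' t-test (8.97% of all probes did in limma with a 1.5-fold difference). In 0 of 8 were the groups without overlap, against 5.88% of all probes. No slide held arrays of both groups under this label.

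Over the 3 labels the mean LBW minus ABW difference was called for 0 of 8 members, against 0.888% of all probes. MYH6 alone reached an unadjusted p under 0.05 (0.76, SE 0.30, limma unadjusted p = 0.0196, adjusted p = 0.275), though it was near background on the arrays labelled liver. The test of whether the difference varied between labels called 0 of 8, against 1.0% of all probes, and none had an unadjusted p under 0.05. The lowest were MYH13 (limma unadjusted p = 0.0532, adjusted p = 0.504) and MYH3 (0.0620 and 0.532).

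The probes most like each member over the 8 muscle arrays were taken by Pearson's r among the other 17116 tested. For MYH2 the most alike was NM_000034, followed among others by TNNC2 (r = 0.99), MYL2 (NM_000432, 0.98), the slow regulatory light chain, and ACTA1 (0.98), and for MYH7 MB (0.99). These are bright probes that share the narrow unscaled range above. For MYH3 the most alike was NM_153811 (r = 0.96), for MYH8 NM_001003792 (0.97), for MYH1 NM_003591 (0.98), for MYH4 XR_014165 (0.98), for MYH6 XR_014039 (0.98) and for MYH13 NM_173589 (0.99), which are given by accession. These are descriptions over 8 arrays of 1 tissue, without a test.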

How the data were processed

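Total RNA of 22 samples was hybridized to single-colour arrays, 4 per group for skeletal muscle and the umbilical cord label and 3 per group for the liver label. Per the file headers the deposited intensities had their background subtracted and were detrended over the array by the scanner software, with 2 spots a probe and no scaling between arrays. The log2 values deposited by the authors were, per the methods, scaled to the 75th percentile and referred to a baseline, and they served as an alternative.

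Outlier spots were left out, the other spots of each probe averaged, and the array's 75th percentile subtracted on the log2 scale. A probe was kept if marked well above background on 75% or more of the arrays of at least 1 group (17117 of 20217). LBW was set against ABW within each label with limma 3.58.1 (statmod 1.5.0, R 4.3.3) and Benjamini-Hochberg adjustment over all probes kept. Differences between labels, the mean difference and the interaction came from 1 fit of the 6 groups. Single members were given two-sided exact permutation tests (Python 3.11.15, scipy 1.17.1). Fits were tested on simulated data. The number of arrays limits the precision.

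Every probe carrying 1 of the 8 accessions was named. Members and lists were chosen with earlier results of these data known. The files give accessions, and symbols come from the list of accessions written for this work. Genes outside the 8 were named where a result turned on them, after their values were seen. Replicate numbers were checked for pairing and did not pair the arrays in muscle or under the umbilical cord label. Under the liver label 2 of 3 ABW arrays were most like the LBW array of their own number, and 3 arrays a group cannot settle pairing there. Alternatives changed the background correction, the scaling, the filter, a floor, the test, array weights, a joint fit of all groups, and a block for the slide or for the replicate number, used the deposited values or the mean per accession, or left out 1 array at a time.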

Additional observations from a re-analysis of the deposited data

Results flagged for a closer look

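In groups of 4 arrays, 1 value was marked where its gap to the nearest other array took up most of the group's range, which chance does in about 1 in 20 groups; 5 of 32 groups of the 8 probes were marked. MYH1 read 5.38 on muscle LBW replicate 2, against 7.32 to 7.49 on the other 3. MYH2 read 8.49 on muscle LBW replicate 3, against 7.45 to 7.62. Its unscaled signal there was 129151, against 121507 to 126127 on the other 3, and that array had the lowest 75th percentile (359.6). On the arrays labelled umbilical cord MYH2 read -1.50 on ABW replicate 2, against -9.48 to -8.59, and -4.94 on LBW replicate 1, against -8.78 to -8.16. MYH7 read -3.84 on LBW replicate 1, against -8.08 to -7.79.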

How the results depend on the processing

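No member was called between the birth weight groups in muscle or on the arrays labelled umbilical cord under any setting, and 1 (MYH3) on those labelled liver with scaling to the spike-in controls. Leaving out each array in turn gave 0 calls throughout in the 3 labels, in their mean and in the interaction, 8 against each other label for muscle, and 4 between the other labels. Normexp background correction left 2 members called between the arrays labelled umbilical cord and liver. At the unadjusted threshold with a 1.5-fold difference the muscle count of 1 became 0 with the methods' t-test and 2 in 1 fit of all 6 groups, was MYH1 instead of MYH13 on the spike-in scale, and ran from 0 to 2 without single arrays. On the arrays labelled liver the count of 0 became 2 with the spike-in scale, 1 in the joint fit, 2 with the replicate block, 2 with slide as a fixed block (8.72% of all probes) and 3 within one slide (8.14% of all probes), where 3 ABW arrays stand against 1 LBW array that is assumed to vary like them, and ran from 0 to 4 without single arrays. On those labelled umbilical cord it became 1 with normexp correction and ran from 0 to 1. Counts here without a share of all probes beside them are not read as a result about the members. The replicate block left 0 members called in each label. The numbers did not pair the arrays in muscle or under the umbilical cord label (correlations of same-numbered arrays from -0.17 to 0.13 and from -0.22 to 0.30). Under the liver label these ran from 0.02 to 0.17, and pairing could not be settled with 3 arrays a group.

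The shift of developmental against adult fast isoforms ran from -0.87 to 0.60 without single arrays. Signs of uncalled differences turned in muscle for MYH3 (0.14) and MYH8 (0.22) with array weights and for MYH2 (-0.29) and MYH7 (-0.18) on the spike-in scale, which moved the median of all probes from 0.06 to -0.45. MYH13 turned to 0.32 under the umbilical cord label with normexp correction, and its muscle minus umbilical cord difference to -0.027 on the spike-in scale. Without single arrays the muscle differences ran from -0.76 to 0.28 for MYH3, -0.68 to 0.37 for MYH8, -0.019 to 0.33 for MYH2 and -1.13 to 0.34 for MYH4, and that of MYH13 under the umbilical cord label from -0.71 to 0.047. The causes were not tested. Values under the liver label, apart from MYH3, and of MYH3, MYH8, MYH2, MYH1 and MYH7 under the umbilical cord label lie at or near background on most arrays, and their differences carry little.

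Over all probes the adjusted count moved by more than 1.5 times under some settings. It was 0 in muscle and became 3 with the floor, 4 in the joint fit, 9 with array weights and 1 or 2 without ABW replicate 1 or LBW replicate 4. It was 0 under the liver label and became 15 on the spike-in scale, 2 in the joint fit and 1 without LBW replicate 1. Under the umbilical cord label 108 became 22 with normexp correction, 65 with quantile normalization, 19 on the spike-in scale, 0 with the methods' t-test, 483 in the joint fit, 64 with the replicate block, 185 with slide as a random block and as few as 38 without 1 array. The mean over labels went from 152 to 25 with normexp correction, 15 on the spike-in scale and 93 without liver-labelled ABW replicate 2, and the interaction from 172 to 33, to 2 and, without umbilical cord-labelled LBW replicate 1, to 376. On the spike-in scale the muscle minus liver count went from 11175 to 6246 and the umbilical cord minus liver count from 11461 to 7267.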
